A study of Mus musculus with 4 samples.

Results

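The Kruppel-like factors are transcription factors that bind GC-rich promoter elements through a block of zinc fingers at their C terminus, while their N-terminal parts recruit activators or repressors. In T cells KLF2 is the best known of them: it keeps resting cells quiescent and in circulation by switching on the sphingosine receptor gene S1PR1, and it is shut off when the T cell receptor is engaged. The 9 members described here (KLF2, KLF3, KLF4, KLF6, KLF7, KLF10, KLF11, KLF12 and KLF13) were taken by gene symbol from the 64253 genes in the count files. KLF13 has a further entry on an alternate contig, which was left out.

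RNA came from CD8+ T cells with high CD11a, an integrin chain of antigen-experienced T cells, sorted out of blood drawn from patients on an antibody that blocks PD-1, an inhibitory receptor of T cells. Of the 4 groups, each with 1 library, a pair was taken after therapy (responder, non-responder) and a pair before it (responder, non-responder). Per the labels, every patient received the antibody at intervals of 3 weeks, 4 doses to a cycle. One label places every collection after a cycle, whereas the group label, which was followed here, places a pair of libraries before therapy. The labels name mouse as the organism, but the files hold human genes on hg38 and the series speaks of patients, so they are described here as human.

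With 1 library per group, no difference between libraries has a replicate check, and the intervals given below cover counting error only. The labels do not say that libraries from before and after therapy came from the same patients, and a tag for PD-1-positive cells stands in the names of the earlier pair alone, so a difference between times cannot be told apart from a difference between patients or gates. The libraries held between 65500644 and 129773591 counts. Markers of the sort were abundant, with CD8A between 865 and 1561 counts per 1e6 counts (CPM) and ITGAL, which encodes CD11a, between 516 and 765 CPM. Markers of other cells were uneven: the 14 monocyte and neutrophil markers summed to 1990 CPM for the responder and 9561 CPM for the non-responder after therapy, and to 160 CPM for the responder and 213 CPM for the non-responder before therapy. The 8 epithelial markers summed to 216 CPM in the responder library before therapy and to between 2.56 and 14.8 CPM in the others, where KRT19 and EPCAM (responder after therapy), KRT19, EPCAM, CDH1 and CLDN4 (non-responder after therapy) and EPCAM, CDH1 and CLDN4 (non-responder before therapy) were at 0. All levels are CPM after TMM normalisation, which scales the libraries to a common size.

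Each of the 9 genes had its highest level in a non-responder library, and this held under the 4 scalings tried. Among the 13233 genes with at least 5 CPM in at least 1 library, 49.1% had theirs in a non-responder library. Fewer cells of a type and less RNA per cell cannot be told apart in these bulk samples. The lowest level was in the responder library before therapy for 4 genes (KLF2, KLF3, KLF10 and KLF11) and in the responder library after therapy for 3 genes (KLF6, KLF7 and KLF13). KLF4 was lowest in the non-responder before therapy and KLF12 in the non-responder after therapy.

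**Figure D1:**
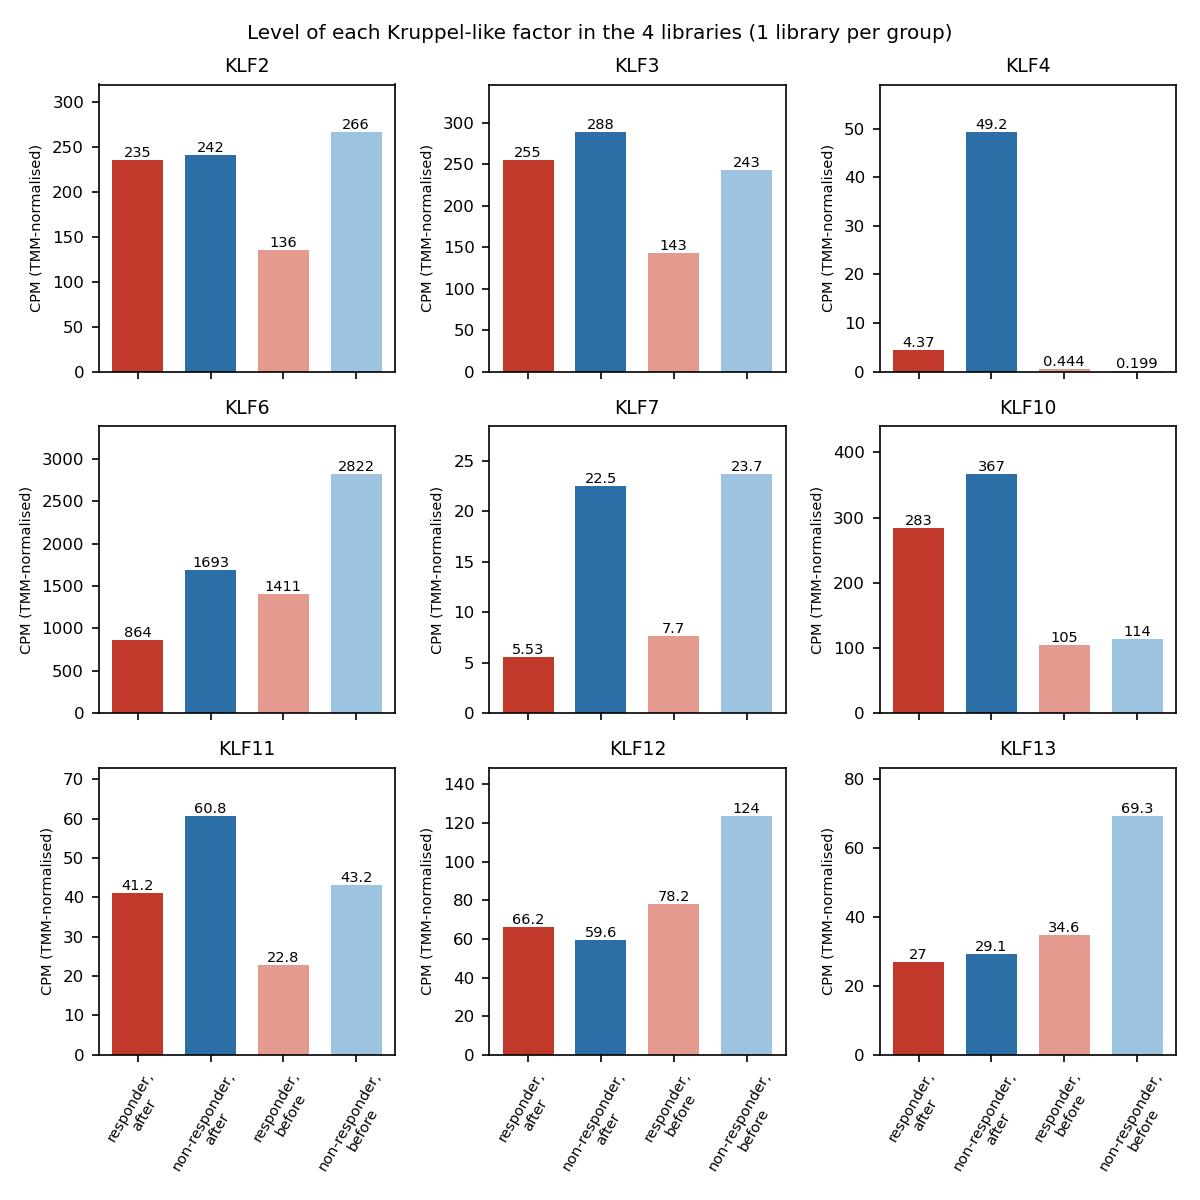
Level of each of the 9 genes in CPM after TMM normalisation, on a linear axis from 0 that differs between panels, with 1 bar for each library. KLF6 and KLF7 are lower in the responder library of either time, KLF10 is higher in both libraries from after therapy, and KLF4 stands out in the non-responder library after therapy at 49.2 CPM.

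KLF6 (ENSG00000067082, chromosome 10: 3775996 to 3785281), a widely expressed factor whose gene is induced quickly by growth and stress signals, was the most abundant of the 9. It stood at 864 CPM (110113 counts) for the responder and 1693 CPM (189450 counts) for the non-responder after therapy. Before therapy it stood at 1411 CPM (117452 counts) for the responder and 2822 CPM (184009 counts) for the non-responder. Ordered by CPM, it was gene 99 and gene 40 in the responder and the non-responder after therapy, and gene 42 and gene 20 in those from before therapy.

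KLF2 (ENSG00000127528, chromosome 19: 16324817 to 16327874), the quiescence and trafficking factor, stood at 235 CPM for the responder and 242 CPM for the non-responder after therapy. Before therapy the values were 136 CPM for the responder and 266 CPM for the non-responder. Thus 3 libraries lay close together and the responder library before therapy was lower. KLF3 (ENSG00000109787, chromosome 4: 38664196 to 38701042), a repressor that works with the corepressor CtBP, had the same lowest library. It stood at 255 CPM for the responder and 288 CPM for the non-responder after therapy, and at 143 CPM for the responder and 243 CPM for the non-responder before therapy.

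KLF10 (ENSG00000155090) and KLF11 (ENSG00000172059, chromosome 2: 10042849 to 10054836) are related repressors that act through the corepressor Sin3, and both are known as early genes induced by TGF-beta. KLF10 stood at 283 CPM for the responder and 367 CPM for the non-responder after therapy, and at 105 CPM for the responder and 114 CPM for the non-responder before therapy. Both libraries from after therapy were above both from before. KLF11 stood at 41.2 CPM for the responder and 60.8 CPM for the non-responder after therapy, and at 22.8 CPM for the responder and 43.2 CPM for the non-responder before therapy. For KLF11 the libraries of the 2 times overlapped.

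KLF12 (ENSG00000118922, chromosome 13: 73686089 to 74133905), a repressor that also binds CtBP, stood at 66.2 CPM for the responder and 59.6 CPM for the non-responder after therapy. Its values before therapy were 78.2 CPM for the responder and 124 CPM for the non-responder. KLF13 (ENSG00000169926, chromosome 15: 31326855 to 31435665), an activator of the chemokine gene CCL5 in late T cell activation, stood at 27.0 CPM for the responder and 29.1 CPM for the non-responder after therapy, and at 34.6 CPM for the responder and 69.3 CPM for the non-responder before therapy. For both genes the non-responder library before therapy stood above the other 3.

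KLF7 (ENSG00000118263, chromosome 2: 207074137 to 207167267), best known from neurons, was scarce. It stood at 5.53 CPM (704 counts) for the responder and 22.5 CPM (2523 counts) for the non-responder after therapy, and at 7.70 CPM (641 counts) for the responder and 23.7 CPM (1547 counts) for the non-responder before therapy. The 2 responder libraries lay below the 2 non-responder libraries with no overlap. KLF4 (ENSG00000136826, chromosome 9: 107484852 to 107490482), a factor of monocyte differentiation that also restrains the division of CD8+ T cells in mice, was the most uneven. It stood at 4.37 CPM (557 counts) for the responder and 49.2 CPM (5512 counts) for the non-responder after therapy, but at 0.444 CPM (37 counts) for the responder and 0.199 CPM (13 counts) for the non-responder before therapy.

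Levels of different genes were compared per kilobase of exonic length. On this scale, in CPM per kilobase, KLF6 was first and KLF2 second in each library. Their levels were 141 and 117 CPM per kilobase in the responder and 276 and 120 CPM per kilobase in the non-responder after therapy. Before therapy they were 230 and 67.1 CPM per kilobase in the responder and 460 and 132 CPM per kilobase in the non-responder. KLF6 therefore exceeded KLF2 by 1.21 times in the responder and 2.30 times in the non-responder after therapy, and by 3.42 times and 3.48 times before it. KLF10 came next at 70.8 and 91.7 CPM per kilobase after therapy and at 26.2 and 28.4 CPM per kilobase before therapy, the responder first in each pair, and KLF3 lay between 22.8 and 45.8 CPM per kilobase. In the non-responder library before therapy KLF3, at 38.6 CPM per kilobase, stood above KLF10. KLF11, KLF12, KLF13 and KLF7 stayed at or below 13.2 CPM per kilobase in each library, and KLF7 did not exceed 2.56.

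As a share of the summed CPM per kilobase of the 9 genes, KLF6 made up 36.3% in the responder and 48.3% in the non-responder after therapy, and 63.4% in the responder and 66.7% in the non-responder before therapy. KLF10 made up 18.2% and 16.1% in the responder and non-responder after therapy, against 7.23% and 4.12% before therapy. The share of KLF2 was 30.0% in the responder after therapy and between 18.5% and 21.0% in the other 3 libraries. These shares do not depend on how the libraries were scaled to each other.

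**Figure D2:**
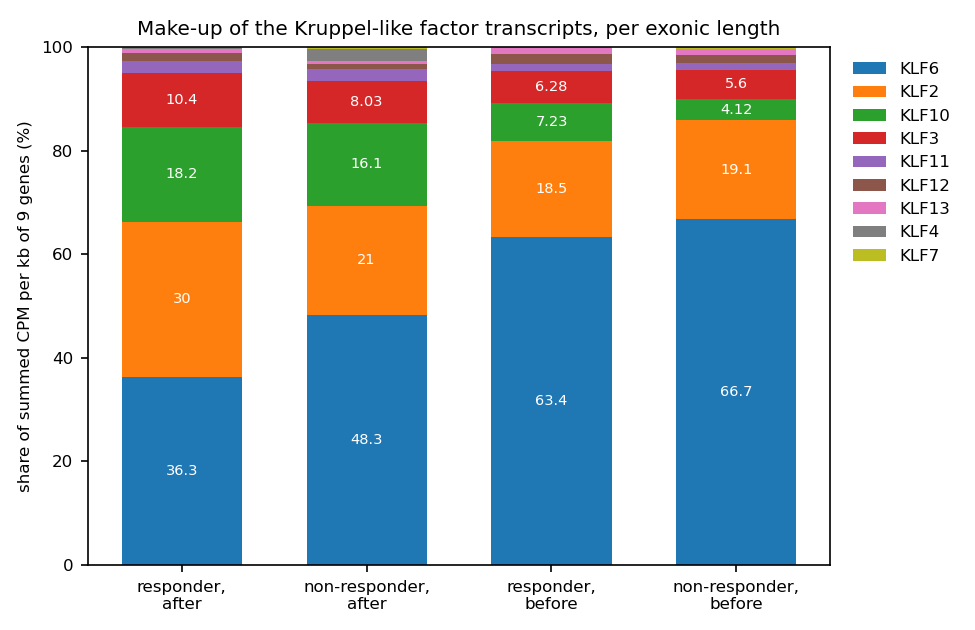
Share of each gene, in percent, of the summed CPM per kilobase of exonic length of the 9 genes, with 1 stacked bar for each library and shares above 4% printed. KLF6 takes 36.3% and 48.3% in the responder and the non-responder after therapy and 63.4% and 66.7% before therapy, and KLF10 takes more in both libraries from after therapy.

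The first comparison asked how responder and non-responder libraries differed at each time. Of the 9 genes, 8 were lower in the responder after therapy and 8 before therapy, and 7 were lower at both times: KLF2, KLF3, KLF6, KLF7, KLF10, KLF11 and KLF13. Of the genes reaching 5 CPM in either library of a pair, 44.9% were lower and 55.1% higher in the responder after therapy, and 46.6% lower and 53.4% higher before therapy, and 28.6% of those with that level in at least 1 of the 4 libraries were lower in both pairs. KLF4 before therapy was under 5 CPM in both libraries of its pair. Over the 9 genes the log2 ratio had a median of -0.37 after therapy and -0.92 before therapy, beside medians of 0.01 and 0.05 over all genes with at least 1 CPM in some library.

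KLF7 was the member lower by at least 2-fold in the responder at both times. The difference was 4.08-fold after therapy (log2 ratio -2.03, 95% counting interval -2.15 to -1.91) and 3.08-fold before therapy (-1.62, interval -1.76 to -1.49). Of all genes with at least 5 CPM in some library, 3.05% showed such a difference at both times. KLF6 was 1.96-fold lower after therapy (-0.97, interval -0.98 to -0.96) and 2.00-fold lower before therapy (log2 interval -1.01 to -0.99), so its ratio was nearly the same at both times.

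The other members had ratios of more unequal size. KLF11 was 1.48-fold lower after and 1.90-fold lower before therapy, and KLF10 1.30-fold and 1.08-fold lower. KLF2, KLF3 and KLF13 were close to equal after therapy, at 1.03-fold, 1.13-fold and 1.08-fold lower in the responder, but 1.96-fold, 1.70-fold and 2.00-fold lower before therapy. KLF12 was 1.11-fold higher in the responder after and 1.58-fold lower before therapy.

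By the count of members at least 2-fold apart, 2 of 9 were lower in the responder after therapy (KLF4 and KLF7) and 0 higher, where 14.7% of genes differed by 2-fold or more, 8.86% downward and 5.79% upward. Before therapy KLF4 was under the 5 CPM that the genes behind these shares had to reach in either library, and 3 of the other 8 members were lower (KLF6, KLF7 and KLF13) and 0 higher, where 20.4% of genes differed by 2-fold or more, 8.93% downward and 11.5% upward. KLF6 and KLF13 sit at the limit itself: scaled by library size alone, their log2 ratios before therapy were both -0.92, and 1 member (KLF7) rather than 3 of these 8 was at least 2-fold apart.

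**Figure D3:**
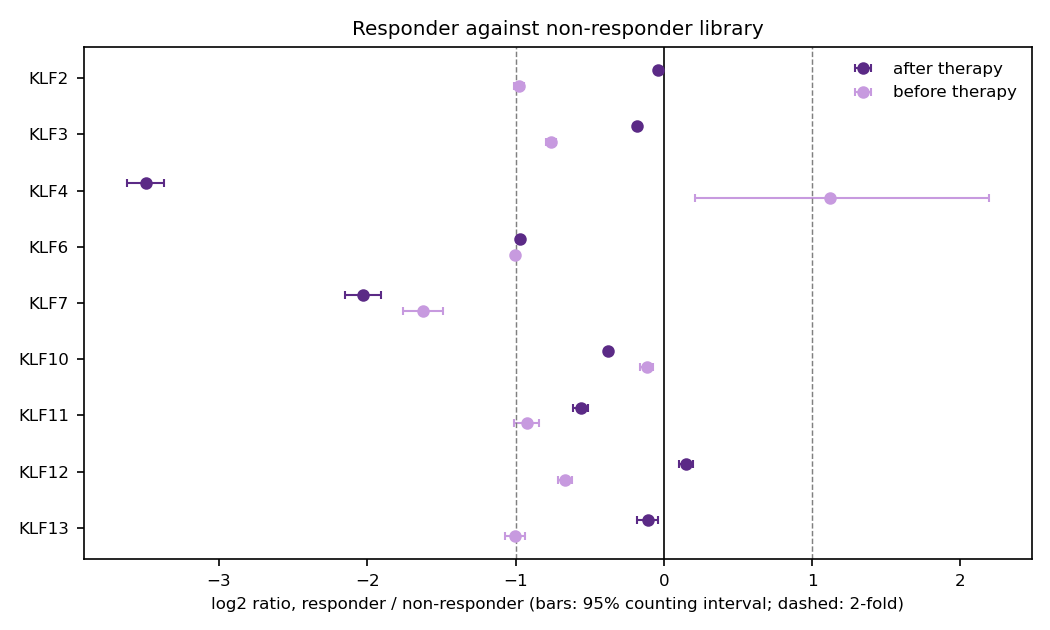
Log2 ratio of the responder over the non-responder library for each gene, with 95% counting intervals (smaller than the symbol for abundant genes), after therapy in dark and before therapy in light symbols. Dashed lines mark 2-fold, and KLF7 lies beyond the lower one at both times, at -2.03 after and -1.62 before therapy, while KLF4 changes side.

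The model that used all 4 libraries, edgeR's quasi-likelihood test with response and time as additive terms, called 0 of the 9 members and 0% of 24113 genes for response after adjustment at 0.05. Before adjustment, 3 members (KLF6, KLF7 and KLF11) and 2119 genes, or 8.79%, had a p under 0.05. With limma-voom 0 genes were called, and 3007 had an unadjusted p under 0.05. KLF6 had a fitted log2 ratio of -0.98 ± 0.167 (SE, adjusted p = 0.558 in edgeR), KLF7 of -1.83 ± 0.335 (adjusted p = 0.558 in edgeR) and KLF11 of -0.74 ± 0.233 (adjusted p = 0.559 in edgeR). DESeq2 on the same design called KLF6 (adjusted p = 0.00441) and KLF7 (adjusted p = 0.000778), and 4.47% of the genes it tested. The remaining edgeR ratios were -0.51 for KLF2, -0.47 for KLF3, -1.43 for KLF4, -0.24 for KLF10, -0.26 for KLF12 and -0.56 for KLF13. The KLF4 ratio depended on the fit: it was -3.18 in limma-voom, where KLF4 was among the members with an unadjusted p under 0.05 (adjusted p = 0.319), and -3.36 in edgeR without the time term. The model leaves 1 residual degree of freedom, which is the departure of the libraries from additive terms. Each tool also borrows spread from other genes. With 1 library per group, these p-values do not measure the spread between patients of a group.

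Immediate early genes, whose transcription starts soon after a stimulus, were also lower in the responder libraries. The 20 genes of the list summed to 5402 CPM for the responder and 15165 CPM for the non-responder after therapy, and to 3257 CPM for the responder and 10290 CPM for the non-responder before therapy. Of the 19 with at least 1 CPM in some library, 13 were at least 2-fold lower in the responder after therapy and 16 before therapy, with 0 at least 2-fold higher. Over the 18824 genes with that level, 14.9% were at least 2-fold lower and 9.05% higher in the responder after therapy, and 13.9% lower and 17.6% higher before therapy. The mitochondrial share of counts moved the same way, at 3.37% in the responder and 4.75% in the non-responder after therapy, and 4.03% and 5.43% before therapy. MALAT1, a nuclear RNA, took 1.62% and 2.22% of counts after therapy and 1.47% and 4.23% before therapy, in the same order. The monocyte and neutrophil markers were 4.81-fold lower in the responder after therapy and 1.33-fold lower before it. After against before therapy, the immediate early sum was 1.66-fold higher in responders and 1.47-fold higher in non-responders. Of the 19 genes, 12 were higher and 7 lower in responders, and 10 higher and 9 lower in non-responders. KLF6 was 1.63-fold and 1.67-fold lower in these pairs, opposite to the sum. The part of these features in the KLF6 and KLF7 values was not tested.

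**Figure D4:**
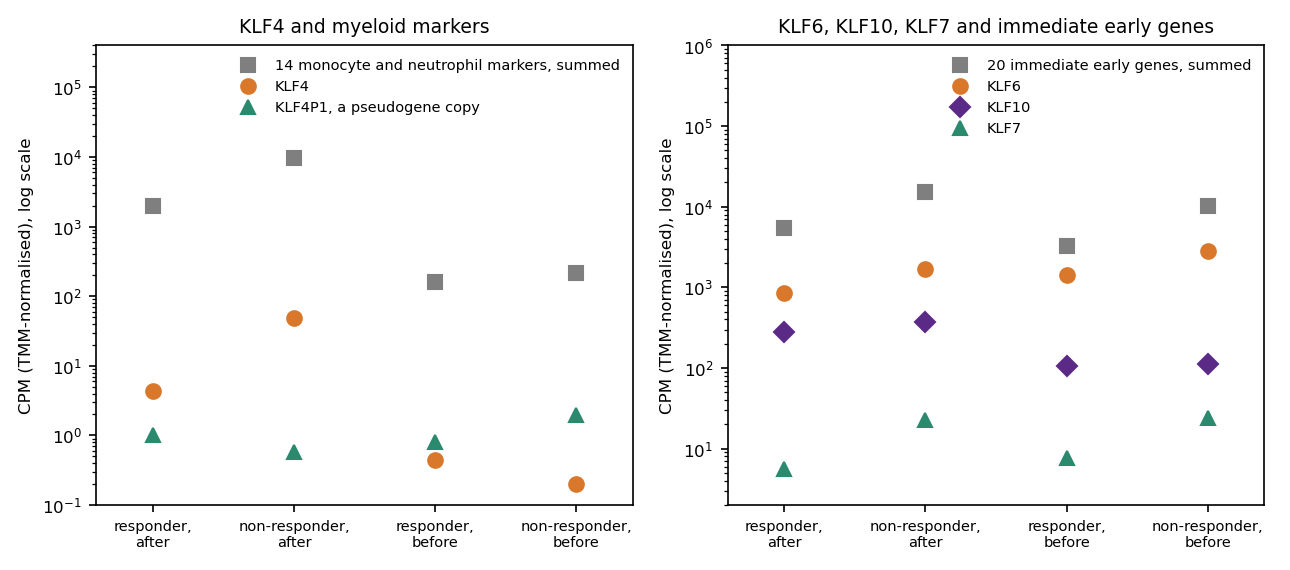
Levels in CPM on a log axis in the 4 libraries: at left KLF4, its pseudogene copy KLF4P1 and the summed monocyte and neutrophil markers, at right KLF6, KLF10, KLF7 and the summed immediate early genes. KLF4 is highest, at 49.2 CPM, in the library where the myeloid markers sum to 9561 CPM, and KLF6 and KLF7 are lower in the responder than in the non-responder library at either time, as is the immediate early sum.

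KLF4 was 11.3-fold lower in the responder than in the non-responder after therapy (log2 ratio -3.49, interval -3.62 to -3.37), where the summed monocyte and neutrophil markers were 4.81-fold lower. The summed dendritic cell markers were 12.8-fold and the summed platelet markers 10.2-fold lower in that pair. Between times, KLF4 was 9.71-fold higher after than before therapy in responders and 238-fold higher in non-responders, beside 12.4-fold and 44.9-fold for the summed monocyte and neutrophil markers. None of these 14 markers was at 0 in any library. The dendritic markers CLEC4C (responder after therapy), CLEC10A and FLT3 (responder before therapy) and FCER1A, CLEC10A, CLEC4C and FLT3 (non-responder before therapy) were at 0, as was the platelet marker TREML1 in the non-responder before therapy. The part of other cells in the KLF4 values was not tested.

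Before therapy KLF4 rested on 37 and 13 counts in the responder and non-responder libraries, a 2.18-fold higher level in the responder (log2 ratio 1.12, interval 0.21 to 2.19). Its pseudogene KLF4P1 on the same chromosome had more counts than KLF4 in these libraries, 67 in the responder and 127 in the non-responder. With the counts of both added, the responder stood at 1.25 CPM against 2.15 CPM in the non-responder, and the log2 ratio turned to -0.78. After therapy KLF4P1 had 129 counts in the responder and 64 in the non-responder, and the ratio with both added was -3.21. Between times, the log2 ratio with both added was 2.10 in responders and 4.53 in non-responders, against 3.28 and 7.89 for KLF4 alone. Reads shared by a gene and its copy may be split by the counting, so the KLF4 values before therapy are uncertain.

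For the other members near copies mattered little. The 4 KLF2 pseudogenes reached at most 0.447 CPM each, and adding the copies of KLF2, KLF3 and KLF7 kept every one of their ratios on its side. KLF3 shares 688 bases with its antisense gene KLF3-AS1, which stood at between 14.2 and 30.1 CPM, and KLF11 shares 416 bases with RP11-254F7.3, at between 2.32 and 8.38 CPM. Reads of such pairs cannot be told apart where the strand setting of the counting is not given.

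The second comparison set libraries from after therapy against those from before. KLF10 was higher after therapy in both pairs, 2.70-fold in responders (log2 ratio 1.43, interval 1.40 to 1.47) and 3.23-fold in non-responders (1.69, interval 1.66 to 1.73). KLF4 was the other member at least 2-fold higher in both pairs, beside 5.04% of the genes that reached 5 CPM in some library. By the same limit 0 members were lower in both pairs, beside 2.43% of genes. At any size, 4 members were higher after therapy in both pairs (KLF3, KLF4, KLF10 and KLF11), beside 38.3% of genes, and 4 were lower in both (KLF6, KLF7, KLF12 and KLF13), beside 30.3% of genes.

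KLF6 was lower after therapy by a similar factor in each pair, 1.63-fold in responders and 1.67-fold in non-responders. KLF13 and KLF12 were at least 2-fold lower after therapy in non-responders, 2.38-fold (log2 ratio -1.25, interval -1.32 to -1.19) and 2.08-fold (-1.06, interval -1.10 to -1.01). In responders they were 1.28-fold and 1.18-fold lower. KLF3 was 1.78-fold higher after therapy in responders and 1.19-fold higher in non-responders, and KLF11 1.81-fold and 1.41-fold higher. KLF2 was 1.74-fold higher after therapy in responders and 1.10-fold lower in non-responders. KLF7 was 1.39-fold lower in responders, while in non-responders its interval held 0 (log2 ratio -0.07, interval -0.16 to 0.02).

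By the 2-fold count, 1 member (KLF10) of the 8 that reached 5 CPM was higher after therapy in responders and 0 were lower, where 13.2% of genes differed by 2-fold or more, 8.5% upward and 4.7% downward. In non-responders, where all 9 reached 5 CPM, KLF4 and KLF10 were higher and KLF12 and KLF13 lower, and 23.9% of genes differed by 2-fold or more, 15.6% upward and 8.25% downward. At any size, 4 of the 8 members were higher and 4 lower after therapy in responders, beside 54.6% and 45.4% of genes, and 4 were higher and 5 lower in non-responders, beside 53.6% and 46.4% of genes.

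**Figure D5:**
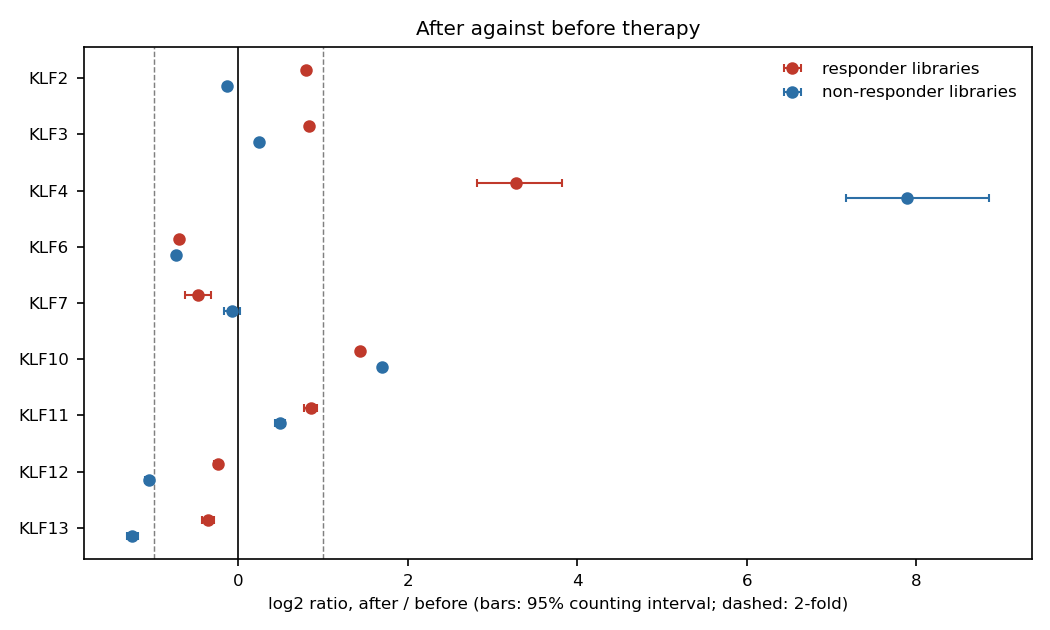
Log2 ratio of the library after therapy over the library before therapy for each gene, with 95% counting intervals, for the responder libraries in red and the non-responder libraries in blue, dashed lines marking 2-fold. KLF10 lies beyond 2-fold in both pairs at 1.43 and 1.69, and KLF4 reaches 7.89 in non-responders, where the library before therapy held 13 counts.

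In the additive model 0 of 9 members and 0% of genes were called for time by edgeR after adjustment at 0.05. Before adjustment, 4 members (KLF4, KLF6, KLF10 and KLF11) and 2732 genes, or 11.3%, had a p under 0.05. With limma-voom 0 members and 2 genes were called, and 3481 genes had an unadjusted p under 0.05. KLF10 had a fitted log2 ratio of 1.56 ± 0.185 after against before therapy (SE, adjusted p = 0.409 in edgeR), KLF4 of 5.51 ± 1.51 (adjusted p = 0.412 in edgeR), KLF6 of -0.72 ± 0.167 (adjusted p = 0.409 in edgeR) and KLF11 of 0.67 ± 0.233 (adjusted p = 0.435 in edgeR). DESeq2 called KLF10 (adjusted p = 4.07e-07) and KLF4 (adjusted p = 3.02e-08), and 7.56% of the genes it tested. The summed monocyte and neutrophil markers were higher after therapy in the same pairs, by 12.4-fold in responders and 44.9-fold in non-responders. Of these 14 markers, 13 were higher in each pair and FCGR3B was lower. The part of these markers in the KLF10 value was not tested.

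Genes that KLF2 is known to sustain in T cells stood in another order over the libraries. S1PR1, the receptor that guides cells out of lymph nodes, stood at 144 CPM for the responder and 82.9 CPM for the non-responder after therapy, and at 157 CPM for the responder and 43.2 CPM for the non-responder before therapy. It was therefore 3.63-fold higher in the responder in the pair where KLF2 was 1.96-fold lower. CCR7, a receptor for entry into lymph nodes, stood at 50.9 and 60.9 CPM in the responder and non-responder after therapy, and at 164 and 61.8 CPM before therapy. ITGB7, an integrin chain of gut homing, was higher in the responder at both times, by 1.62-fold after and 1.30-fold before therapy. The responder library before therapy, in which KLF2 was lowest, was also the one with 216 CPM of epithelial markers, whose part in the KLF2 value was not tested.

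Regulators of the family gave a mixed picture. Of the 12 upstream genes, 1 was at least 2-fold lower in the responder after therapy and 3 before therapy. At least 2-fold higher were 0 at both times. Of all genes with at least 1 CPM in some library, 14.9% were at least 2-fold lower and 9.05% higher after therapy. Before therapy these shares were 13.9% and 17.6%. TGFB1, the ligand that induces KLF10 and KLF11, stood at 135 CPM for the responder and 164 CPM for the non-responder after therapy, and at 73.3 CPM for the responder and 153 CPM for the non-responder before therapy. SMAD7, a TGF-beta target that feeds back on the pathway, was 1.09-fold lower in the responder after and 2.24-fold lower before therapy. MEF2 factors drive KLF2 transcription downstream of the kinase ERK5. MEF2D was 1.13-fold lower in the responder after and 3.15-fold lower before therapy, in the same direction as KLF2. MEF2A was 1.45-fold lower in the responder at both times. After against before therapy it was 2.19-fold higher in responders and 2.18-fold higher in non-responders, where KLF2 was 1.74-fold higher and 1.10-fold lower. MAP2K5, also among the upstream genes, was higher in the responder, by 1.21-fold after and 1.25-fold before therapy. MAPK7, which encodes ERK5, was 1.09-fold lower in the responder after therapy and 1.61-fold higher before therapy. MEF2C, also a gene of monocytes and B cells, stood at 7.31 CPM for the responder and 39.4 CPM for the non-responder after therapy, and at 1.29 and 0.828 CPM before therapy. FOXO1, which sustains KLF2 in resting T cells, lay between 64.5 and 88.3 CPM.

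Of the 11 cofactors and ubiquitin ligases, 0 were at least 2-fold apart after therapy. Before therapy 1 was higher and 1 lower in the responder. Of all genes with at least 1 CPM in some library, 14.9% were at least 2-fold lower and 9.05% higher after therapy. Before therapy these shares were 13.9% and 17.6%. HDAC1, a deacetylase of the Sin3 complex, was higher in the responder by 1.61-fold after and 2.16-fold before therapy. FBXW7, which marks KLF2 for degradation, stood at 108 CPM for the responder and 111 CPM for the non-responder after therapy, and at 63.5 CPM for the responder and 137 CPM for the non-responder before therapy. WWP1, a ubiquitin ligase of KLF2 and KLF5, was 1.09-fold lower in the responder after and 1.91-fold lower before therapy. CTBP1, the corepressor of KLF3 and KLF12, lay between 87.1 and 106 CPM, so it varied less than either of those factors.

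Among the other 17 KLF and SP genes on the list, 8 reached 1 CPM in some library, and 7 of the 8 were lower in the responder after therapy and 7 before therapy, beside 49.6% and 47.6% of the genes at this level. KLF9, a factor induced by glucocorticoids, stood at 7.09 CPM for the responder and 32.9 CPM for the non-responder after therapy, and before therapy the responder level was 1.92-fold lower. Its edgeR ratio for response was -1.58 ± 0.457 (SE, adjusted p = 0.558 in edgeR). The ubiquitous factor SP1 was 1.55-fold lower in the responder after and 1.83-fold lower before therapy, and its relative SP3 stood at 144 CPM for the responder and 217 CPM for the non-responder after therapy. SP4 went the other way after therapy, at 72.3 CPM for the responder and 29.2 CPM for the non-responder. KLF1, the erythroid factor, and KLF15 did not exceed 31 and 7 counts, and KLF14 and KLF17 had 0 counts in the 4 libraries, which allows up to between 0.0235 and 0.046 CPM for counting error alone.

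KLF2 and KLF4 are known to restrain division, and genes of the cell cycle and its brakes differed between libraries in both directions. CDKN1A, the p21 inhibitor that KLF4 activates, stood at 14.2 CPM for the responder and 136 CPM for the non-responder after therapy, a 9.54-fold lower level, and at 19.6 and 20.8 CPM before therapy. KLF4 and the summed myeloid markers were lower in the responder of that pair too, and their part in the CDKN1A value was not tested. BTG1, a quiescence gene, was 1.88-fold lower in the responder after and 2.88-fold lower before therapy. Of the 9 genes on this list, 2 were at least 2-fold lower and 3 higher in the responder after therapy. Before therapy 3 were lower and 1 higher. TOB1 was at least 2-fold lower in the responder at both times, and CCND1, at or below 4.78 CPM, at least 2-fold higher. MKI67 stood at 8.91 CPM for the responder and 0.402 CPM for the non-responder after therapy, and at 18.1 and 36.5 CPM before therapy. CCND2 stood at 393 CPM for the responder and 115 CPM for the non-responder after therapy, and at 98.7 and 78.2 CPM before therapy. Of all genes with at least 1 CPM in some library, 14.9% were at least 2-fold lower and 9.05% higher after therapy. Before therapy these shares were 13.9% and 17.6%.

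For 8 members that spanned at least 2-fold over the libraries, the closest genes in pattern were named by the root mean square difference of centred log2 CPM over the 4 libraries, among 13129 genes. KLF2, which spanned 1.96-fold, was not taken. Each pattern is only 4 values, so close matches are easily found among so many genes. Whether close genes are regulated together was not tested. Closest to KLF7 were PPP1R15A, a stress-induced regulator of translation (difference 0.03), LINC01001 (0.04) and the phosphatase gene DUSP10 (0.07). PPP1R15A stood at 86.5 CPM for the responder and 356 CPM for the non-responder after therapy, and at 128 CPM for the responder and 381 CPM for the non-responder before therapy. Closest to KLF6 were MBNL1-AS1 (0.03), a gene known by a clone name alone (0.04) and CITED4 (0.05).

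Nearest to KLF4 were CLEC12A (0.23), LTBR (0.32) and CD93 (0.41), of which CLEC12A and CD93 encode receptors of myeloid cells. CLEC12A stood at 7.09 CPM for the responder and 114 CPM for the non-responder after therapy, and at 1.09 and 0.414 CPM before therapy. KLF10 was closest to AC004540.4 (0.07), MMD (0.08) and SNX10 (0.09), KLF3 to ZXDB (0.03), MATR3 (0.04) and HEBP1 (0.04), and KLF11 to SP1, IRAK1BP1 and SBF2-AS1 (0.05 each). KLF12 was closest to KRT10 (0.02), HLA-H, whose reads may be split with near-identical HLA genes (0.03), and BCL11B, a T cell identity factor (0.03), and KLF13 to THAP7 (0.03), FAM166A (0.04) and RP1-198K11.5 (0.05).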

How the data were processed

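Per the labels' protocols, 1 ng of RNA went into each SMARTer Ultra Low cDNA library, read from both ends over 101 bases. The submitters' processing notes name bcl2fastq 1.8.4, TopHat2 and the build hg38. Each deposited file lists whole-number read counts by Ensembl gene. How reads were counted, strand included, is not given in the sources used here. The authors' gene lengths are exonic lengths, judged by their values. Gene names and positions were taken from the files. No human sequence was printed, and the mouse reference was not used here.

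Tables and tests leave out 4146 genes on alternate contigs and 617 sex-informative genes. edgeR 4.0.16 in R 4.3.3 was run with filterByExpr, TMM and an additive model of response and time, two-sided, with Benjamini-Hochberg adjustment at 0.05. SEs were derived from each ratio and its F statistic. DESeq2 1.42.0 and limma 3.58.1 (voom) were alternatives. The fit and the interval were tested on simulated data. The outcome is not given here, so it lends no weight to the counts of 0 called genes. For pairs, 0.5 was added as prior count, 95% intervals were exact conditional binomial, and 2-fold counts needed 5 CPM in either library, which KLF4 missed before therapy and between times in responders. A count of 0 was given a floor of 3 counts. Without molecular identifiers, intervals and floors cover counting error only. The members and gene lists were chosen with earlier results of these data known. All 9 members are named. From the other lists any gene could be named. Not all those at least 2-fold apart in both pairs of a contrast are named, as with the immediate early genes, given as a sum. The 3 nearest genes in pattern were taken by the measure given with them. The other marker lists had these sums, given for responder after, non-responder after, responder before and non-responder before: B cell 108, 81.7, 73.6 and 53.1 CPM, CD4 T cell 20.6, 111, 11.6 and 11.0 CPM, NK cell 524, 270, 482 and 320 CPM, erythroid 3.89, 5.42, 2.85 and 22.0 CPM, endothelial 0.133, 1.45, 0.733 and 2.70 CPM.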

Additional observations from a re-analysis of the deposited data

Results flagged for a closer look

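KLF2 was higher after than before therapy in the responder libraries (log2 ratio 0.80) and lower in the non-responder libraries (-0.14), so the ratios of the 2 pairs differed by 0.94 on the log2 scale in opposite directions. KLF12 was higher in the responder than in the non-responder library after therapy (0.15) and lower before therapy (-0.66), a gap of 0.82. KLF4 was lower in the responder after therapy (-3.49) and higher before therapy (1.12), a gap of -4.61, and its values before therapy rest on 37 and 13 counts and on how reads of KLF4P1 were assigned. Each pair holds 1 library per group, and none of these differences was tested.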

How the results depend on the processing

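The ratios of the 9 members in the 4 pairs kept their direction in 144 of 144 recalculations with DESeq2 size factors, library size only, upper quartile scaling or a prior count of 2. In 42 the value left its counting interval, and the largest move was 0.152 on the log2 scale, and the scalings shifted a pair of libraries by up to 0.146 against TMM. Over all 9 members, KLF4 included, 4 were at least 2-fold apart between responder and non-responder before therapy and 2 when scaled by library size only. With members held to 5 CPM in either library, a rule added after seeing the data and used in the text above, these counts were 3 and 1, and 1 rather than 2 members differed by 2-fold between times in responders. With KLF4P1 counted into KLF4, a setting chosen after seeing the data, the log2 ratio of KLF4 in that pair turned to -0.78. Calls depended on the tool: DESeq2 called 950 genes and 2 members for response, and 1554 genes and 2 members for time, where edgeR called 0. For time, limma-voom and the edgeR fit with no filter on low counts each called 2 genes, and 0 members. The cause was not tested. Counts of members lower or higher in both pairs, recalculated in the same 4 ways after the data were seen, were the same as those reported. No paired analysis was possible because the labels tie no libraries to the same patient and the groups share fewer than 2 replicate numbers. The additive model compares times within response and response within time. Depth limits mainly KLF4 before therapy.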
